A study of Mus musculus with 10 samples.

Results

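Levels of 7 endocannabinoid system genes were examined in the prefrontal cortex (PFC) of *Zbtb16* knockout (KO) and wild-type (WT) mice: *Cnr1*, *Dagla*, *Daglb*, *Mgll*, *Faah*, *Napepld* and *Abhd6*. They were chosen by name for their roles in endocannabinoid synthesis, breakdown and reception, with earlier results of these data known. They are 7 of the 22000 genes in the count table. All 7 passed edgeR's filter on low counts, as did 14344 genes in total. The series holds RNA-seq libraries of whole PFC tissue from 5 KO and 5 WT mice, 1 library per mouse, all 7 weeks old and labelled as male. KO mice belonged to the B6.C3-*Zbtb16* lu/J line and were homozygous for *lu*, a nonsense point mutation present in every cell, not a deletion limited to the cortex. *Zbtb16* encodes PLZF, a zinc-finger transcription factor. The comparison asks whether loss of PLZF goes with a different level of these transcripts. In whole tissue, fewer cells of a type and less RNA per cell cannot be told apart.

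Endocannabinoids are lipids made on demand, mostly by the receiving neuron, that travel backwards across the synapse and lower transmitter release through the CB1 receptor. The main one in the cortex, 2-arachidonoylglycerol (2-AG), is made by diacylglycerol lipases and broken down largely by monoacylglycerol lipase, with a smaller share cleaved by ABHD6. Anandamide, the other well-known ligand, is released from its phospholipid precursor by NAPE-PLD and hydrolysed by FAAH. In the neocortex the CB1 receptor is most dense on the terminals of interneurons that contain cholecystokinin (CCK).

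Each library held 30220122 to 51231439 counts, so that 3 counts, taken as the floor of detection, equalled 0.0586 to 0.0993 CPM (counts per 1000000 counts of the library). The 7 genes had 618 to 17269 counts in each mouse. Counting error was 4.02% of the value at the lowest count of *Napepld* and 0.959% at that of *Mgll*. Values below are CPM after TMM scaling, which corrects for differences in library composition. *Zbtb16* itself lay between 42.1 and 52.8 CPM in KO and between 70.7 and 88.3 CPM in WT mice. In KO mouse 3, 4 Y-linked genes had 1 count together, against 4376 to 8182 in the other mice. This mouse was kept under its label, and results without it are among the fits that leave out each mouse. RNA integrity number (RIN) was 9.5 or above in 6 mice, 3 of each genotype, and 8.1 to 8.3 in 4 mice, 2 of each.

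The DNA just before the start of 3 of the genes is shown because these 3 had the smallest p-values in the genotype comparison and differ in CpG content, which tells apart the broad classes of mammalian promoters. The letters come from RefSeq (GRCm38.p6, plus strand), run 5′ to 3′ and end at the base before the annotated start, which for *Cnr1* is the Gencode start. Capitals mark CpG dinucleotides. The *Cnr1* stretch is chr4:33924394-33924592, the *Daglb* stretch chr5:143464243-143464492 and the *Mgll* stretch chr6:88724162-88724411.
*Cnr1*: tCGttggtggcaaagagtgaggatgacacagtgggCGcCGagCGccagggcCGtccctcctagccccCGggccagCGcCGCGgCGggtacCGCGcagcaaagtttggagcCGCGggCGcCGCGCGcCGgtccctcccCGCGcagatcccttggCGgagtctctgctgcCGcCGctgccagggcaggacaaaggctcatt
*Daglb*: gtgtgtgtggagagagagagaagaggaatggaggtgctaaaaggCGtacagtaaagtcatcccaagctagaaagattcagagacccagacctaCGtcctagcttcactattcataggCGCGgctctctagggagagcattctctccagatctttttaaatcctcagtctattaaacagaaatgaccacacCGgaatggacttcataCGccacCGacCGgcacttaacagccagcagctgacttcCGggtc
*Mgll*: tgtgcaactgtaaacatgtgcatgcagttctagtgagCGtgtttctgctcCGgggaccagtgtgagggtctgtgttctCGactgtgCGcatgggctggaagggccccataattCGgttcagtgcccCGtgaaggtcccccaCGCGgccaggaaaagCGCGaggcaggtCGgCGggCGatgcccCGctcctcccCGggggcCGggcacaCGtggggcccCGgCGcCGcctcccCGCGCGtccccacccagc
CpG pairs numbered 24 in 199 bases before *Cnr1* and 23 in 250 bases before *Mgll*, but 9 in 250 bases before *Daglb*. RefSeq start windows of 300 bases were found for 6 of the 7 genes, 10 windows in all, and none was used for *Dagla*. The windows of these *Cnr1*, *Mgll* and *Daglb* starts held 33, 32 and 11 CpG pairs, against a median of 7 over 32851 mouse windows. Further windows of *Cnr1* held 40 and 5 CpG pairs, and that of *Mgll* held 42. The *Cnr1* window with 40, chr4:33924014-33924313, lies upstream of the stretch shown, which is thus not before every annotated *Cnr1* start. No promoter was assayed here, and the sequences are given as a description.

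Per exon length, *Mgll* was the most abundant of the 7 transcripts in WT mice. Divided by the length of all annotated exons of the gene, its level was 66.9 ± 5.20 CPM per kb (SD, n = 5). It was followed by *Dagla* at 32.3 ± 2.42, *Cnr1* at 29.4 ± 3.81 and *Abhd6* at 27.3 ± 1.35 CPM per kb (SD, n = 5 each). *Faah* lay at 13.9 ± 0.572, *Napepld* at 5.53 ± 0.294 and *Daglb* at 5.48 ± 0.111 CPM per kb (SD, n = 5 each). By this measure the genes for breakdown of 2-AG and for its neuronal synthesis ranked above those of the anandamide branch. The order depends on the exon lengths, which were 2365 bases for *Abhd6* and 7834 for *Faah*. Without division by length, WT means were 64.6 CPM for *Abhd6* and 109 CPM for *Faah*. They were 21.9 CPM for *Napepld* and 52.4 CPM for *Daglb*.

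Among 13602 tested genes with a length, these WT levels placed *Mgll* at the 95.8th percentile and *Daglb* at the 49.6th. The steps from *Mgll* to *Dagla*, from *Abhd6* to *Faah* and from *Faah* to *Napepld* held in 10 of 10 mice, with ranges over all mice that did not overlap. The exon length of a gene was the same for every mouse, so this count does not test the lengths. Neighbours within the group of *Dagla*, *Cnr1* and *Abhd6* did not differ beyond their spread, as *Dagla* exceeded *Cnr1* in 7 of 10 mice and *Cnr1* exceeded *Abhd6* in 5 of 10. *Napepld* and *Daglb* overlapped as well, with *Napepld* higher in 7 of 10.

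**Figure D1:**
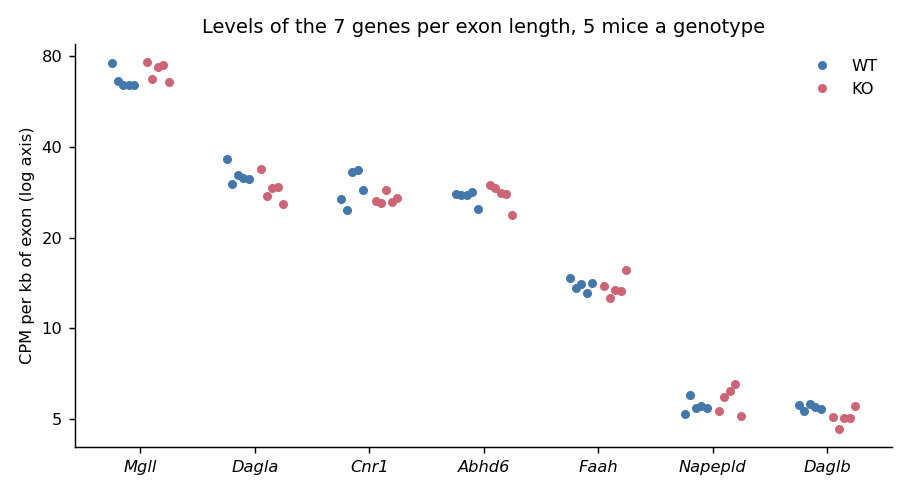
Level of each gene in each mouse, in CPM per kb of exon on a log axis, with WT mice in blue and KO mice in red. *Mgll* stands above the other genes in every mouse, *Dagla*, *Cnr1* and *Abhd6* form a middle group, and *Napepld* and *Daglb* share the lowest place.

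None of the 7 genes changed between the genotypes at a false discovery rate (FDR) of 0.05. By the quasi-likelihood test of edgeR, with genotype and 3 surrogate variables (weights per mouse that stand for unrecorded differences between libraries), 0 of 7 were called, against 0.844% of all 14344 tested genes. An unadjusted p under 0.05 was reached by 3 of 7, *Mgll*, *Cnr1* and *Daglb*, against 10.6% of all genes. Which genes reached it depended on the surrogate variables. In edgeR without them, *Daglb* (unadjusted p = 0.0406) and *Dagla* (0.0433) did, against 1150 of all 14344 tested genes. *Mgll* (0.116), *Cnr1* (0.101) and the rest of the 7 did not. None of the 7 had KO and WT values that did not overlap, against 1.58% of all genes. The median log2 difference of KO minus WT was -0.04 over the 7 and -0.0044 over all tested genes. DESeq2 with the same surrogate variables called 1 of the 7, *Mgll*, against 233 of the 13509 genes to which it gave an adjusted p.

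The synthesis genes of 2-AG come first. *Dagla* (ENSMUSG00000035735.10, chromosome 19 of GRCm38 from 10245265 to 10304877, minus strand) encodes the diacylglycerol lipase that makes most 2-AG at adult synapses. In KO mice 1 to 5 it was at 194, 158, 168, 169 and 148 CPM. In WT mice 1 to 5 it was at 209, 173, 185, 182 and 180.0 CPM. In 4 of the 5 KO mice the value lay below all WT mice, while KO mouse 1 lay inside the WT range. The means were 168 ± 17.2 in KO and 186 ± 13.9 CPM in WT mice (SD, n = 5 each; exact two-sided permutation test, p = 0.103). The fitted log2 difference was -0.09 (95% interval -0.19 to 0.02, adjusted p = 0.576, edgeR).

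*Daglb* (ENSMUSG00000039206.13, chromosome 5 from 143464584 to 143505942, plus strand) encodes the second diacylglycerol lipase, known mostly from microglia and macrophages. It was at 48.5, 44.5, 48.4, 48.1 and 53.0 CPM in KO mice 1 to 5. In WT mice 1 to 5 it was at 53.4, 51.1, 53.5, 52.5 and 51.7 CPM, the narrowest spread of any of the 7 genes. KO mice 1 to 4 lay below every WT mouse, and KO mouse 5 lay within the WT range. The difference between 48.5 ± 3.01 and 52.4 ± 1.06 CPM (SD, n = 5 each) had p = 0.0317 in an exact two-sided permutation test. This test was run for each of the 7 genes, and its p was not adjusted over them. Across all genes *Daglb* did not pass, with a log2 difference of -0.13 (95% interval -0.22 to -0.04, adjusted p = 0.25, edgeR). *Daglb* shares 2309 exon bases, 24.1% of its exon length, with *Rac1* on the opposite strand. How strand was handled in the counting is not given in the sources used here, so reads of the 2 genes may not have been told apart over these bases.

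For breakdown of 2-AG, *Mgll* (ENSMUSG00000033174.17, chromosome 6 from 88724412 to 88828360, plus strand) encodes monoacylglycerol lipase. In KO mice 1 to 5 it was at 387, 340.4, 373, 377 and 334 CPM. In WT mice 1 to 5 it was at 386, 336, 325, 325 and 326 CPM. The genotypes overlapped, with WT mouse 1 next to the highest KO mouse and the other WT mice below KO mice 1, 2, 3 and 4. Means were 362 ± 23.6 in KO and 340 ± 26.4 CPM in WT mice (SD, n = 5 each; exact permutation test, p = 0.175). The fitted log2 difference was 0.15 (standard error 0.04, 95% interval 0.07 to 0.24, adjusted p = 0.104, edgeR), the smallest p of the 7. It passed with DESeq2 (adjusted p = 0.0286) and in edgeR without KO mouse 2 (adjusted p = 0.0164), without KO mouse 5 (adjusted p = 0.0349) or without WT mouse 1 (adjusted p = 0.006), but in none of the other 19 of 23 alternative fits.

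*Abhd6* (ENSMUSG00000025277.14, chromosome 14 from 8002902 to 8056763, plus strand) encodes a serine hydrolase that cleaves 2-AG on the postsynaptic side. It ranged from 56.0 to 70.4 CPM in KO mice (median 66.6) and from 59.0 to 67.1 CPM in WT mice (median 65.4). Mouse 5 was the lowest of its genotype in both groups. The log2 difference was 0.06 (95% interval -0.03 to 0.15, adjusted p = 0.661, edgeR).

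*Cnr1* (ENSMUSG00000044288.6, chromosome 4 from 33924593 to 33948831, plus strand) encodes the CB1 receptor, the main cannabinoid receptor of the brain. It was at 170.3, 168, 186, 169 and 174 CPM in KO mice 1 to 5. In WT mice 1 to 5 it was at 174, 159, 212, 216 and 185 CPM. All KO values fell inside the WT range, which was the widest of the 7 genes relative to its mean, and WT mice 3 and 4 stood above every other mouse. Means were 173 ± 7.29 in KO and 189 ± 24.6 CPM in WT mice (SD, n = 5 each; exact permutation test, p = 0.238). With the surrogate variables the log2 difference was -0.17 (standard error 0.06, 95% interval -0.29 to -0.06, adjusted p = 0.217, edgeR). It passed without KO mouse 2 (adjusted p = 0.0208), KO mouse 4 (adjusted p = 0.0249) or KO mouse 5 (adjusted p = 0.0139), and in 3 of 23 alternative fits in all.

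*Cnr1* was then read beside RNA quality. The 4 mice with a RIN of 8.1 to 8.3 had 197 ± 20.4 CPM and the 6 with a RIN of 9.5 or above had 171 ± 8.65 CPM (SD, n = 4 and 6). The difference had p = 0.00952 in an exact two-sided permutation test as 1 of 7 such comparisons, none of which passed Benjamini-Hochberg adjustment over the 7. WT mice 3 and 4 were both in the lower class. Among mice of high RIN the log2 difference of KO minus WT was -0.03 (3 against 3 mice), and among those of low RIN it was -0.25 (2 against 2 mice). With RIN as a covariate in place of the surrogate variables it was -0.12 (adjusted p = 0.487, edgeR).

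**Figure D2:**
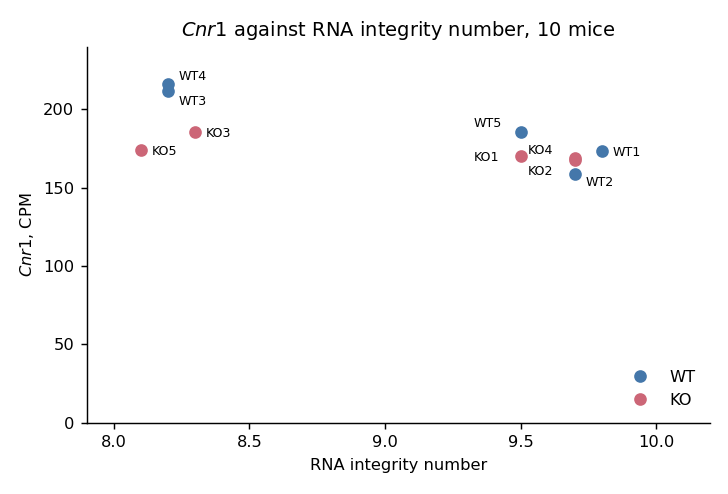
*Cnr1* in CPM against the RNA integrity number of each of the 10 mice, WT in blue and KO in red. WT mice 3 and 4, at 212 and 216 CPM, both have a RIN of 8.2, while the 6 mice with a RIN of 9.5 or above lie between 159 and 185 CPM.

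A list of CCK-type interneuron markers was read beside *Cnr1*. Whether it marks only the cells with most CB1 was not tested. The 6 CCK-type interneuron genes (*Cck*, *Slc17a8*, *Vip*, *Sncg*, *Adarb2* and *Htr3a*) summed to 342 to 408 CPM in KO and 379 to 437 CPM in WT mice, and 0 of 6 were called. Most of the sum was *Cck*, at 285 to 340.0 CPM in KO and 300.4 to 359 CPM in WT mice. Their mean score, in log2 units, was 0.11 lower in KO mice (exact permutation test, p = 0.0476, and 0.333 after adjustment over 12 marker lists). Each of the 6 genes counts equally in this score. Fitted log2 differences were -0.46 for *Slc17a8*, -0.18 for *Vip*, -0.07 for *Cck* and -0.14 to -0.04 for the others (edgeR). Before TMM scaling *Vip* was at 32.5 to 45.4 CPM in KO and 45.9 to 51.1 CPM in WT mice, without overlap. In TMM-scaled CPM 1.58% of all genes did not overlap. The 3 PV and SST interneuron markers gave a score difference of -0.14 (exact permutation test, p = 0.0556, adjusted 0.333). None of the genes in the 12 lists of cell type markers was called. After subtracting the genotype means, *Cnr1* and the CCK-type score had a Pearson correlation of 0.43 over the 10 mice (permutation p = 0.219) and a Spearman correlation of 0.77 (permutation p = 0.0129). After adjustment over 91 such relations the values were 0.685 and 0.462. The part of CCK-type interneurons in the *Cnr1* values was not tested.

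Both anandamide genes had small differences. *Napepld* (ENSMUSG00000044968.16, chromosome 5 from 21662901 to 21701396, minus strand), which encodes the anandamide-releasing phospholipase D, was at 23.0 ± 2.37 CPM in KO and 21.9 ± 1.16 CPM in WT mice (SD, n = 5 each). KO mice reached from 20.2 to 25.9 CPM and WT mice from 20.5 to 23.7, with 2 KO mice above all WT mice and 1 below. Its log2 difference was 0.11 with the widest interval of the 7, from -0.05 to 0.26 (adjusted p = 0.662, edgeR).

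*Faah* (ENSMUSG00000034171.13, chromosome 4 from 115967145 to 116017926, minus strand), which encodes fatty acid amide hydrolase, was at 108 ± 9.01 CPM in KO and 109 ± 4.48 CPM in WT mice (SD, n = 5 each). KO mouse 5, at 122 CPM, was the highest of all 10 mice, and the other KO mice lay between 98.4 and 108 CPM. The log2 difference was -0.04 (95% interval -0.12 to 0.04, adjusted p = 0.798, edgeR).

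**Figure D3:**
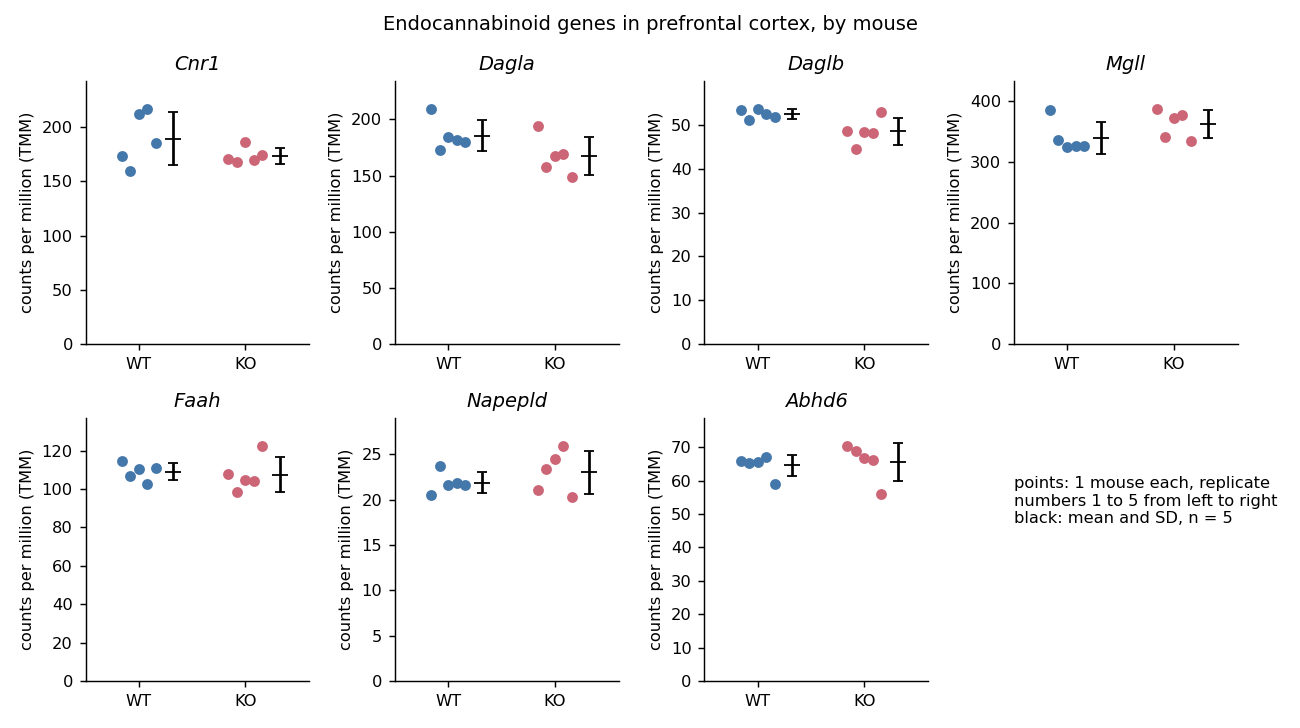
CPM of the 7 genes in each mouse, with axes from 0, WT in blue and KO in red, replicate numbers 1 to 5 from left to right in each group, and the mean and SD in black (n = 5). In all 7 genes at least 1 KO mouse lies within the WT range, and in *Dagla* and *Daglb* 4 of the 5 KO mice lie below all WT mice.

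Although neither gene passed alone, the balance of *Dagla* to *Mgll*, the main synthetic and the main degrading enzyme of 2-AG, differed between the genotypes. In KO mice 1 to 5 there were 0.503, 0.463, 0.449, 0.449 and 0.445 *Dagla* counts per *Mgll* count. In WT mice 1 to 5 there were 0.542, 0.514, 0.569, 0.558 and 0.553. All 5 KO mice lay below all 5 WT mice. The geometric means were 0.461 in KO and 0.547 in WT mice, a log2 difference of -0.25 against SDs of 0.07 and 0.06 (n = 5 each). An exact two-sided permutation test gave p = 0.00794, the smallest that 5 mice against 5 allow, and 0.0317 after Benjamini-Hochberg adjustment over the 4 ratios compared. These ratios were chosen with earlier results of these data known, a choice that the adjustment does not cover. The difference was not tested in other mice. The ratio to *Mgll* did not overlap between the genotypes for 1.55% of the other 14343 tested genes, and the ratio to *Dagla* for 1.81%. A ratio within a library does not depend on library scaling, and it says nothing of which of the genes differed.

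The low value in KO mice held when mice were left out, with log2 differences from -0.28 to -0.23, but without any 1 WT mouse the adjusted p was 0.0635 (exact permutation test, 5 against 4 mice). Among the 6 mice of high RIN the log2 difference was -0.19 (3 against 3 mice, exact permutation test, adjusted p = 0.4, unadjusted 0.1, the smallest possible).

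**Figure D4:**
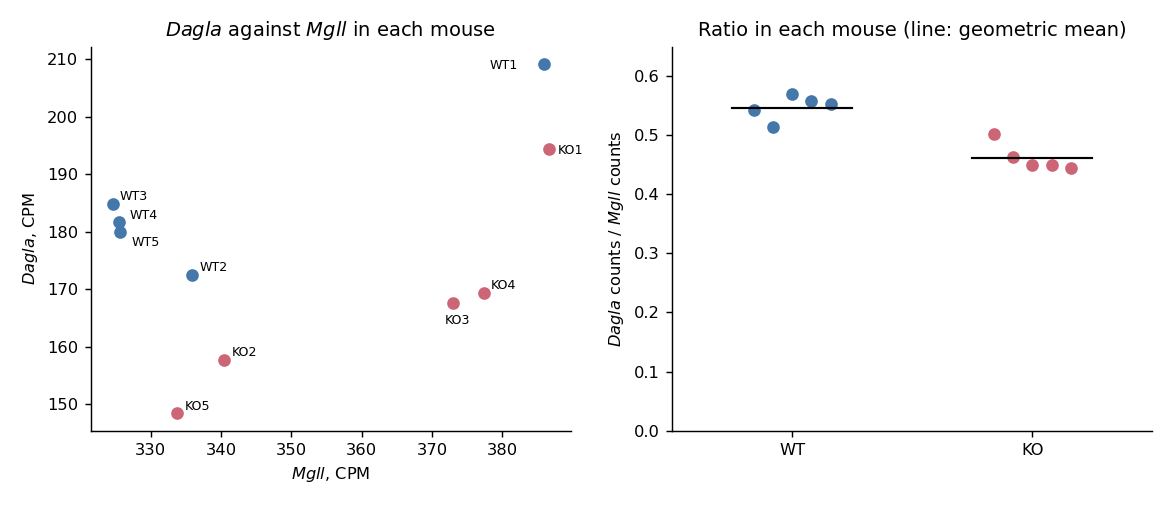
Left, *Dagla* against *Mgll* in CPM in each mouse, and right, the ratio of *Dagla* to *Mgll* counts in each mouse with the geometric mean as a line, WT in blue and KO in red. In KO mice *Dagla* falls in the same order as *Mgll*. Among WT mice, mouse 1 is highest in both genes. Mouse 2 is next in *Mgll* and lowest in *Dagla*, and mice 3, 4 and 5 are nearly equal in *Mgll*. The KO mice lie below the WT mice, at ratios of 0.445 to 0.503 against 0.514 to 0.569.

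The other 3 ratios did not differ beyond their spread. *Dagla* exceeded *Daglb* by 3.45 times in KO and 3.53 times in WT mice (geometric means of count ratios, exact permutation test, p = 0.825). *Mgll* exceeded *Abhd6* by 5.53 and 5.25 times (exact permutation test, p = 0.317). The ratio of *Napepld* to *Faah* counts was 0.213 in KO and 0.200 in WT mice, and 3 KO mice lay above all WT mice and 1 below (exact permutation test, p = 0.476).

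By Pearson correlation 2 pairs of the 7 genes varied together from mouse to mouse, after the mean of each genotype was subtracted. Neither pair passed adjustment by Spearman correlation. *Dagla* and *Mgll* had a Pearson correlation of 0.86 over 10 mice (permutation p = 0.00098, adjusted 0.0206 over 21 pairs) and a Spearman correlation of 0.82 (permutation p = 0.00537, adjusted 0.113). Mice WT1 and KO1 were the highest of their genotypes in both genes. In KO mice the 2 genes kept the same order throughout. Among WT mice other than WT1, WT2 was highest in *Mgll* and lowest in *Dagla*. WT3, WT4 and WT5 had nearly the same *Mgll*, 325 to 326 CPM, so no trend can be read among them. Without the 2 mice farthest from the median of *Dagla* the Pearson correlation was 0.70. Without the subtraction it was 0.38 (permutation p adjusted 0.536).

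*Daglb* and *Faah* had a Pearson correlation of 0.88 (permutation p = 0.00218, adjusted 0.0229) and a Spearman correlation of 0.65 (permutation p = 0.0478, adjusted 0.251). Without the 2 mice farthest from the median of *Daglb* the correlation was 0.46, so the relation rests on those mice. Without subtraction of the genotype means the Pearson correlation was 0.72 (permutation p adjusted 0.165). KO mouse 5 was the highest KO mouse in both genes. *Faah* tended the opposite way to *Abhd6* (-0.75) and to *Napepld* (-0.69), but neither passed the adjustment (permutation p adjusted 0.125 each). Without KO mouse 5 these correlations were -0.21 and -0.44. With any other single mouse left out they were -0.83 to -0.73 and -0.75 to -0.66. The other 17 pairs lay between -0.62 and 0.59. Leaving out KO mouse 2, KO mouse 5 or WT mouse 1 took the adjusted p of both leading pairs above 0.05, with correlations of 0.80 to 0.85 for *Dagla* and *Mgll* and 0.68 to 0.89 for *Daglb* and *Faah*.

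Of 91 relations between the 7 genes and the marker scores or total counts, none passed the adjustment. The lowest p was that of *Mgll* and the score of 7 microglial markers, with a Pearson correlation of -0.85 (permutation p = 0.00213, adjusted 0.194), a Spearman correlation of -0.85 and a Pearson correlation of -0.90 without the 2 farthest mice. The microglial markers summed to 264 to 298 CPM in KO and 249.6 to 282 CPM in WT mice, and 0 of 7 were called.

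Genes whose levels followed each of the 7 most closely over the 10 mice, genotype means subtracted, were picked from all tested genes as a description. *Cnr1* was followed by *Shisa7* (Pearson correlation 0.97), *Fam189a1* (0.95) and *Vps13d* (0.95). *Dagla* was followed by *Btbd11* (0.96), *Dexi* (0.95) and *Fam217b* (0.95). *Mgll* was followed by *Dab2ip* (0.96), *Syt13* (0.95) and *Fam104a* (0.94). *Dagla* and *Mgll* had no gene in common among their 3 closest. Lists of 3 out of 14343 genes are too short to show how far the 2 share followers.

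*Daglb* was followed by *Tecpr2* (0.99), *Rtn3* (0.98) and *Ndrg3* (0.97), and *Faah* by *Trappc1* (0.98), *Gstm4* (0.97) and *Cfl1* (0.96). *Napepld* was followed by *Stk3* (0.97), *Gpr155* (0.96) and *Zfp51* (0.96), and *Abhd6* by *Soat1* (0.98), *Chst10* (0.97) and *Uhrf2* (0.97). Such values are the highest of 14343 per gene, so the search itself raises them, and none of these 21 genes was called between the genotypes.

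Wider lists held 50 further genes of the pathway, of which 49 are in the table and 43 were tested. Between the genotypes 1 of the 43 was called and 8 had an unadjusted p under 0.05, of which KO mice had the higher level in 7 and the lower in 1. Over all 14344 tested genes 0.844% were called and 10.6% had such a p, 791 of them with the higher level in KO mice and 731 with the lower. The median log2 difference of the 43 was -0.003. The call was *Plcb4*, which encodes a phospholipase C that acts behind Gq-coupled receptors and yields the diacylglycerol from which 2-AG is made. It was at 134, 106, 124, 129 and 104 CPM in KO mice 1 to 5 and at 109.7, 112, 97.4, 104 and 110.5 CPM in WT mice 1 to 5. KO mice 1, 3 and 4 lay above all WT mice, and KO mice 2 and 5 lay within their range. Its log2 difference was 0.26 (standard error 0.04, adjusted p = 0.00508, edgeR). That call was absent without surrogate variables, where the difference was 0.16 (adjusted p = 0.603), and it held in 14 of 23 alternative fits. Without surrogate variables an unadjusted p under 0.05 was reached in edgeR by *Camk2a*, *Plcb4*, *Ptgs2* and *Arrb1*. It was reached by none of the rest of the 43, and by 1150 of all 14344 tested genes.

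All 14 genes of the Gq-coupled list, the receptors, G proteins, scaffolds and kinases around the 2-AG synthesis step, were tested, and 5 of 14 had an unadjusted p under 0.05, each higher in KO mice, against 10.6% of all tested genes in either direction and 791 of 14344 in this one. The list's median log2 difference was 0.03 and it was not tested as a set. The 5 depended on the surrogate variables. In edgeR without them, *Camk2a* (unadjusted p = 0.0131) and *Plcb4* (0.0347) were under 0.05, against 1150 of all 14344 tested genes. *Chrm1* (0.0699) and the rest of the 14 were not. *Camk2a*, the kinase subunit that phosphorylates and restrains DAGLα, was at 4073 ± 202 CPM in KO and 3742 ± 182 CPM in WT mice (SD, n = 5 each; log2 difference 0.12, adjusted p = 0.0684, edgeR). *Chrm1*, the M1 muscarinic receptor, was at 244 ± 12.2 and 228 ± 14.1 CPM (log2 difference 0.10, adjusted p = 0.218, edgeR). *Camk2a* passed with DESeq2 (adjusted p = 0.0214) and in edgeR without KO mouse 2 (adjusted p = 0.0106) or WT mouse 2 (adjusted p = 0.0211).

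Among CB1 partners and Gi/o signalling genes, 0 of 11 were called, 3 had a positive and 8 a negative difference, and the median was -0.03. *Arrb1*, an arrestin that binds activated receptors, had the smallest p, with 428 ± 27.8 CPM in KO and 462 ± 13.6 CPM in WT mice (SD, n = 5 each; log2 difference -0.07, adjusted p = 0.396, edgeR). Other breakdown genes and carriers gave 0 of 7 calls and a median of 0.01. *Ptgs2*, cyclooxygenase-2, which also oxidises 2-AG and is an activity-responsive gene in neurons, led them with 24.0 ± 3.44 and 19.8 ± 2.47 CPM (log2 difference 0.30, adjusted p = 0.154, edgeR).

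Other synthesis genes gave 0 of 9 calls and a median of -0.02. *Pla2g4e*, an N-acyltransferase that makes the anandamide precursor, had the smallest p among them (log2 difference -0.16, adjusted p = 0.662, edgeR). KO mouse 5 had 22.5 CPM of it, against 8.36 to 9.98 in the other KO mice and 9.22 to 12.7 in WT mice.

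Of the other receptors only *Ppara* and *Pparg*, nuclear receptors for lipids, passed the filter, and neither was called. *Ppara* was at 3.09 ± 0.359 CPM in KO and 2.53 ± 0.232 CPM in WT mice (SD, n = 5 each; log2 difference 0.35, adjusted p = 0.464, edgeR). *Cnr2*, the CB2 receptor, had at most 9 counts in any mouse, *Gpr55* at most 18, *Trpv1* at most 11 and *Gpr119* 0. They did not pass the filter, so a genotype difference in them was not tested.

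**Figure D5:**
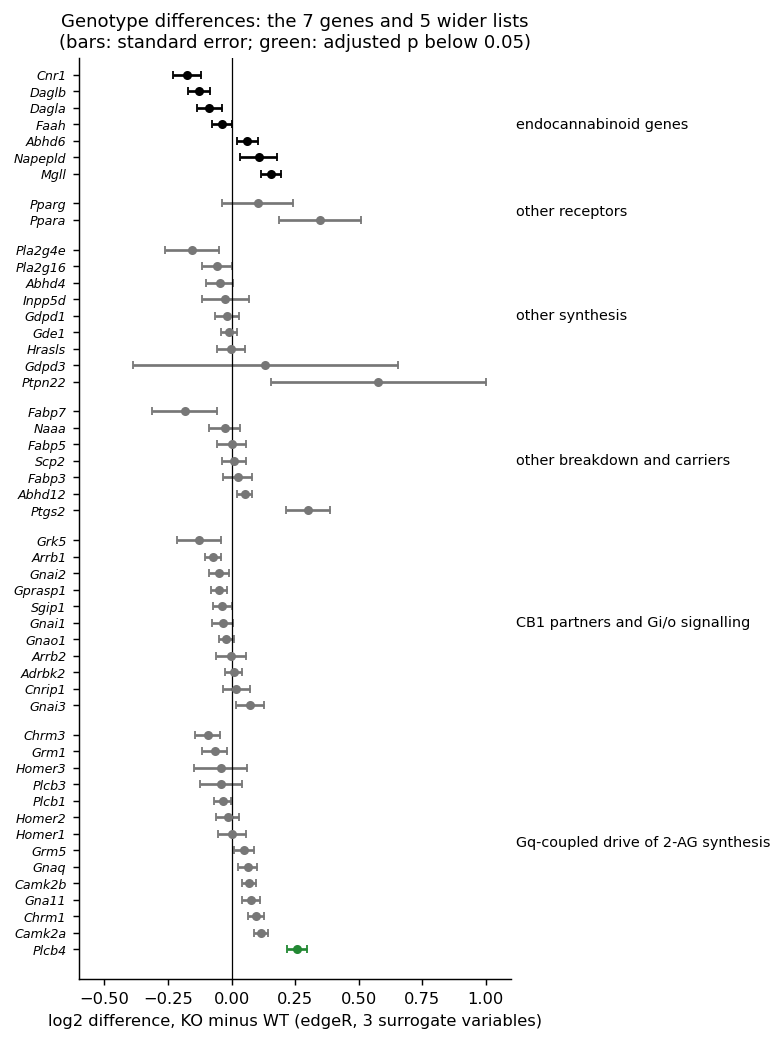
Log2 difference of KO minus WT (edgeR, genotype and 3 surrogate variables) of the 7 genes in black and the 43 tested genes of the wider lists in grey, with the standard error as bars and the gene called at FDR < 0.05 in green. *Plcb4*, at 0.26, is the call, and the 7 genes lie between -0.17 and 0.15.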

How the data were processed

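PFC libraries of 5 KO and 5 WT mice were made from stranded mRNA and sequenced as 101 bp paired ends. The authors aligned reads to mm10 with STAR (2.7.1a), removed multi-mapped reads and counted the rest on exons of protein-coding Gencode M21 genes with HTSeq (0.9.1, intersection-strict). The deposited values are these raw counts. A strand setting is not given in the sources used here. Each mouse is a sample, and genotype was taken from the labels.

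From the counts, edgeR (4.0.16, R 4.3.3) gave TMM-scaled CPM and quasi-likelihood tests on genotype and 3 surrogate variables (sva 3.50.0, on log2(CPM + 1), seed 1), with Benjamini-Hochberg adjustment over 14344 genes and a threshold of 0.05. Standard errors were derived from the F statistic. Correlations used log2 CPM (prior count 2), 100000 permutations and adjustment within their family. Genotype values and ratios were compared by exact permutation over the 252 splits. Alternatives covered surrogate variables, RIN, a striatal score, the replicate block, DESeq2 (1.42.0), limma (3.58.1), normalization, filter and each mouse left out. Fits were tested on simulated counts. Intervals and floors cover counting error or the spread between mice, since reads carry no molecular identifiers.

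The 7 genes, the lists and the ratios were chosen with earlier results of these data known. Named genes are the 7, *Zbtb16*, the 3 closest genes of each, and in each wider list every call and up to 3 genes of smallest p. Exon lengths and positions come from Gencode M21, matched by symbol, and *Hrasls*, *Hrasls5*, *Pla2g16* and *Adrbk2* by older symbols. *Gpr18* was not analysed here. Files were handled with Python 3.11.15, pandas 2.3.3 and scipy 1.17.1.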

Additional observations from a re-analysis of the deposited data

Results flagged for a closer look

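In 60 groups of 5 mice tested for a value that stands apart from the rest, by Dixon's ratio of the gap to the range, 6 were found, and chance gives about 1 in 20. Among WT mice, mouse 1 stood apart for *Mgll*, at 386 CPM against 325 to 336 in the others, and for the ratio of *Dagla* to *Daglb* counts, at 3.91 against 3.38 to 3.48. WT mouse 5 stood apart for *Abhd6*, at 59.0 CPM against 65.3 to 67.1. KO mouse 5 stood apart for *Pla2g4e*, at 22.5 CPM against 8.36 to 9.98. Of the marker scores, which are mean log2 deviations, that of endothelial and mural genes stood apart in KO mouse 2 (0.11) and that of striatal neuron genes in WT mouse 5 (1.05). Striatal markers summed to 178 to 429 CPM in WT and 219 to 350 CPM in KO mice.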

How the results depend on the processing

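Across 23 alternative fits, *Cnr1*, *Dagla*, *Daglb*, *Mgll* and *Napepld* kept the direction of their genotype difference in all 23, and *Faah* and *Abhd6* in 22. The exceptions came from the 4 mice of low RIN alone, where *Faah* was at 0.10 and *Abhd6* at -0.11 (log2, KO minus WT). *Mgll* passed with DESeq2 at 0.16. With single mice left out *Mgll* lay between 0.13 and 0.19 and *Cnr1* between -0.25 and -0.12, with 0 to 2 of the 7 called, and DESeq2 called 1. *Pla2g4e* changed direction without surrogate variables (0.15), with RIN as a covariate (0.0929), under the replicate block (0.0396) and in mice of low RIN (0.73).

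The count of called genes of the wider lists was 1, and 2 with DESeq2. It was 0 with no, 1 or 2 surrogate variables, with RIN or a striatal score as a covariate, under the replicate block, with limma and in either RIN class alone. It was 1 to 2 when mice were left out. Over all genes 121 were called, and 30, 34 and 57 with no, 1 and 2 surrogate variables, 38 with RIN, 14 with the striatal score, 24 under the replicate block, 233 with DESeq2, 6 with limma, 1 in mice of high RIN, 0 in those of low RIN (with an unadjusted p under 0.05 for 813 genes in edgeR) and 39 to 248 when mice were left out.

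The ratio of *Dagla* to *Mgll* was -0.19 in mice of high RIN and -0.25 under the replicate block, where the designs cannot pass the threshold after adjustment, and -0.28 to -0.23 with mice left out. The ratio of *Dagla* to *Daglb* lay between -0.0906 and 0.0387 with mice left out and was at 0.0401 in mice of high RIN, where that of *Mgll* to *Abhd6* was -0.0324. For changes not set by fewer mice the cause was not tested.

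Replicate numbers join different mice. Correlations of same-numbered mice were -0.06 to 0.16, and the closest WT mouse had the same number for KO mice 1 and 5, so the replicate block was read as an alternative only. Depth limits *Cnr2*, *Gpr55*, *Trpv1* and *Gpr119*, not the 7 genes, for which the spread between mice exceeded counting error in every case but *Daglb* in WT mice.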
